A study of Mus musculus with 6 samples.

Results

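Glyoxalase 1 (Glo1), 3 genes that lie beside it on mouse chromosome 17 (Btbd9, Dnah8 and Glp1r) and 4 further genes of dicarbonyl detoxification (Hagh, Park7, Akr1b3 and Aldh9a1) were examined in bulk RNA-seq of the mouse RPE (retinal pigment epithelium), a sheet of pigmented cells that serves the photoreceptors. These are 8 of the 54532 genes in the deposited table, found there by symbol. They were put together with the difference in Glo1 between these same libraries in view, so their differences between the genotypes are given as a description and carry no test. The 3 wild-type (WT) mice were of strain 129S1/SvlmJ, and the 3 Abca4-/- (Abca4KO) mice carried the Abca4tm1Ght allele in a line from the Jackson Laboratory. Mice of both groups had the Leu450 form of Rpe65, were kept in cyclic light on a standard diet and were sampled 5 h after light onset. Line and genotype change together and cannot be told apart. Age and sex are not given in the sources used here.

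Glo1 and Hagh form the glyoxalase system. Methylglyoxal, a reactive dicarbonyl that arises mainly as a by-product of glycolysis, reacts with glutathione to a hemithioacetal, which Glo1 turns into S-lactoylglutathione and Hagh splits into D-lactate and glutathione. Park7 (DJ-1) has been reported to act on methylglyoxal and its adducts, the aldose reductase Akr1b3 reduces it, and Aldh9a1 oxidises aldehydes such as aminobutyraldehyde. What is not cleared forms advanced glycation end products, which are known to build up with age at the RPE and Bruch's membrane. Among inbred mouse strains the Glo1 locus is known for a duplication that spans Glo1 and neighbouring genes. The copy number of the locus was not measured in these data.

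The libraries held 17047286 to 19841307 counts each. Abca4, the gene disrupted in the mutant line, had 952 ± 18.1 CPM (counts scaled to a library of 1e6 counts) in WT mice and 36.2 ± 3.31 CPM in Abca4KO mice (SD, n = 3 each), and each library matched its label. The 10 RPE markers summed to 31432 to 39868 CPM in WT mice and 35651 to 38016 CPM in Abca4KO. Markers of other cells were present too. The 10 rod markers summed to 593 to 1656 CPM in WT mice and 935 to 3279 CPM in Abca4KO, the 10 endothelial markers to 326 to 546 and 533 to 828 CPM, the 10 macrophage markers to 840.0 to 1545 and 980.1 to 1372 CPM, the 6 fibroblast markers to 1330.2 to 1617 and 1644 to 2075 CPM, and the 5 Müller glia markers to 2248 to 2559 and 2001 to 2222 CPM. The fibroblast and Müller glia sums did not overlap between the genotypes, and the others did. The endothelial sums overlapped only because WT 2 (546 CPM) lay above Abca4KO 1 (533 CPM). Of the 10 endothelial markers, 6 were higher and 0 lower in Abca4KO at an unadjusted p under 0.05 with edgeR. Over all tested genes these shares were 3.15% and 3.87%. Glul held the largest share of the Müller glia sum, with 1434 to 1516 CPM for WT mice against 1176 to 1360 CPM for the mutants. Dkk3 of the same list lay apart in the other direction, higher in Abca4KO, and Slc1a3, Aqp4 and Gfap overlapped. The gap in this sum therefore rests largely on Glul, and a difference in the amount of glia was not tested. None of the markers, those of RPE included, was at 0 in all libraries.

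The start regions of Glo1, of its neighbour Dnah8 and of Hagh, the second enzyme of the pathway, are shown so that the gene with the difference can be read beside its neighbour and its partner enzyme. They are RefSeq sequences of build GRCm38.p6 (mm10), from 250 bases before to 50 bases after the annotated start, printed 5′ to 3′ along each gene. Windows were found for 6 of the 8 genes, not for Btbd9 or Akr1b3. Capitals mark 3 searched motifs on either strand: TGACNNNGC, the core of the antioxidant response element bound by Nrf2, the CCAAT box, and the GC box GGGCGG. The Glo1 window lies at chr17:30612610-30612909 (minus strand) and that of Dnah8 at chr17:30626686-30626985 (plus strand). The Hagh window lies at chr17:24850240-24850539 (plus strand, the first of the 2 starts with a window). In the deposited table Dnah8 begins at 30624354 and Hagh at 24840143, so the Dnah8 and Hagh windows do not lie at the starts given there.
Glo1: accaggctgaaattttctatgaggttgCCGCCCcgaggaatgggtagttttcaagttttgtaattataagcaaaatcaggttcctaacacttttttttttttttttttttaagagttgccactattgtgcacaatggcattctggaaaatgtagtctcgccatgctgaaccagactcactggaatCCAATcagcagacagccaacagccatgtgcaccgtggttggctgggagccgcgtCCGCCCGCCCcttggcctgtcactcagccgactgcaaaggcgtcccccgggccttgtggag
Dnah8: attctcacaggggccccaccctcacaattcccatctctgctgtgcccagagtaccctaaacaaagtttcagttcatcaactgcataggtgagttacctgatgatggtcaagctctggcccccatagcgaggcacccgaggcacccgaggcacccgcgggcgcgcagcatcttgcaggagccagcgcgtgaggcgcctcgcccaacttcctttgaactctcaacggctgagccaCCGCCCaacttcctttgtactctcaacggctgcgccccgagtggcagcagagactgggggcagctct
Hagh: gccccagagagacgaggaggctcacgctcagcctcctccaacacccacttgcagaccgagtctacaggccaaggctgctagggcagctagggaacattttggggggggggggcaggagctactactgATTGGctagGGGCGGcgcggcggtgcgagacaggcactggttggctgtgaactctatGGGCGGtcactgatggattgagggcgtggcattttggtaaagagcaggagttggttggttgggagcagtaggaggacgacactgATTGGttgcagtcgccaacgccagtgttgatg
The Glo1 window held 1 CCAAT match, which begins 65 bases before the start, and 3 GGGCGG matches, which begin 223, 11 and 7 bases before it, the last 2 overlapping each other. Dnah8 held 1 GGGCGG match, 17 bases before its start. This Hagh window held 2 of each of these motifs. None of the 3 windows held TGACNNNGC, which was found in the Aldh9a1 window, 87 bases before the start, and in the window of the second Hagh start. Of all 32851 windows of this length, 12.4% held TGACNNNGC, 37.4% CCAAT and 35.7% GGGCGG.

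Glo1 was the member whose levels lay apart between the genotypes, higher in Abca4KO. Glo1 (ENSMUSG00000024026, minus strand, chromosome 17 from 30592866 to 30612659 in mm10) measured 251.5, 248.0 and 270.1 CPM in WT replicates 1, 2 and 3 and 409.2, 381.5 and 416.0 CPM in Abca4KO replicates 1, 2 and 3. The lowest Abca4KO library lay well above the highest WT library. The means were 256.5 ± 11.9 CPM in WT mice and 402.2 ± 18.3 CPM in Abca4KO mice (SD, n = 3 each), a fold change of 1.57 and a log2 fold change (Abca4KO minus WT) of 0.65 with a standard error (SE) of 0.08. In bulk RNA a different number of cells and a different amount of RNA per cell cannot be told apart. The spread between animals of one genotype was narrow, with a coefficient of variation of 4.64% in WT and 4.54% in Abca4KO. Raw counts of Glo1 were 4804, 4619 and 4962 in WT and 8064, 7393 and 7158 in Abca4KO, 37000 in all. Of all 17340 tested genes, 661 had a larger positive log2 fold change than Glo1, and of the 1921 with a mean of at least 100 CPM, 13 did.

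**Figure D1:**
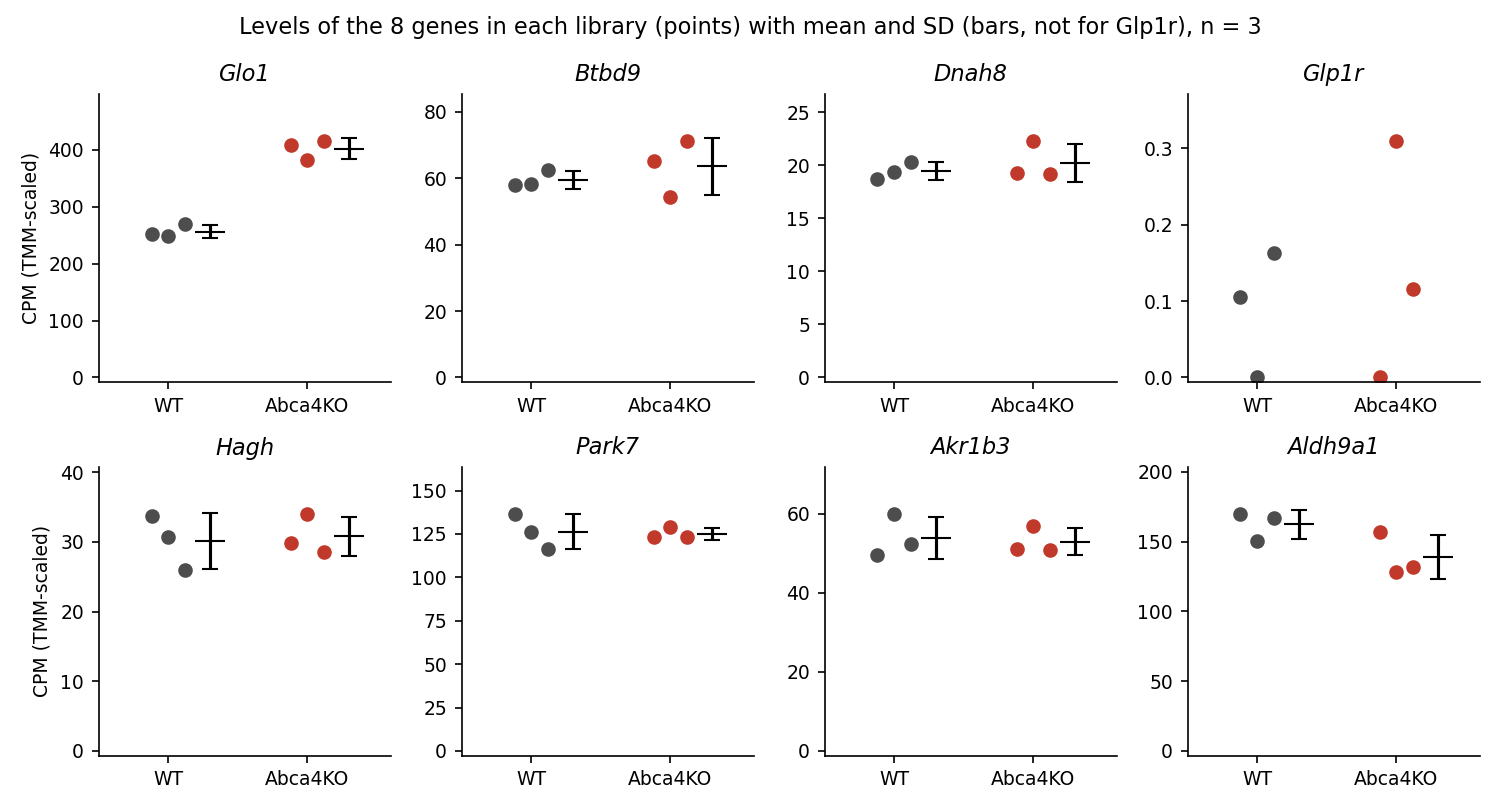
CPM of each of the 8 genes (vertical axes, starting at about 0 and scaled for each gene) in 3 WT and 3 Abca4KO libraries, with points for libraries and bars for the mean and SD except for Glp1r. Glo1 is at 248.0 to 270.1 CPM in WT mice and 381.5 to 416.0 CPM in Abca4KO, and in the other 7 panels the genotypes overlap.

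None of the 7 members with enough counts to be tested (0 of 7) reached an adjusted p under 0.05 over all genes with edgeR, a threshold passed by 0.0461% of all 17340 tested genes (0.0346% higher and 0.0115% lower in Abca4KO). Glo1 was the 1 member with an unadjusted p under 0.05, against 7.02% of all tested genes. It was also the 1 member whose libraries did not overlap between the genotypes, against 12.8% of all tested genes (5.93% higher and 6.85% lower). DESeq2 called 1 of 7 members, Glo1, against 0.563% of the 18829 genes it tested. Without a filter on low counts edgeR called 1 of 8, again Glo1, against 0.0654% of 29052 genes. Since the genes were chosen on this contrast, these counts only describe them. Of the markers of other cells, 10 of 10 rod, 10 of 10 endothelial and 6 of 6 fibroblast markers had a positive log2 fold change. So did 6 of 10 macrophage markers, while 4 of 5 Müller glia markers had a negative one. Over all tested genes 8293 of 17340 were positive. The rod sums were 1656, 593 and 1522 CPM in WT 1, 2 and 3 and 3279, 935 and 1037 CPM in Abca4KO 1, 2 and 3. Abca4KO 1 alone lay above the WT range. The part of these other cell types in the level of Glo1 was not tested.

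Glo1 has a near-identical copy elsewhere in the genome, the processed pseudogene Gm13443 on chromosome 2 (35340409 to 35340963). All 555 bases of Gm13443 align to the Glo1 coding sequence, from its ATG to its stop codon, with 3 mismatches (99.46% identity). Positions are counted from 1 at the A of the Glo1 start codon, and the Glo1 base is given first. Of the mismatches, G9A and T225C are described here, and each is the last base of a codon and leaves the coded residue the same. The longest stretch without a mismatch is 330 bases, so a read that falls within it cannot be assigned to 1 of the genes by sequence. The stretches around both, in capitals, are shown because such bases tell the transcripts apart in the coding sequence. They are from GENCODE M21 transcripts.
Glo1 bases 1 to 29: atggcagaGccacagccggcgtccagtgg
Gm13443 bases 1 to 29: atggcagaAccacagccggcgtccagtgg
Glo1 bases 205 to 245: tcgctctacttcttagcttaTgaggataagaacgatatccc
Gm13443 bases 205 to 245: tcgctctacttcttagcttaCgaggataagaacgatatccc

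Gm13443 counts covered a similar range in both genotypes, at 345, 386 and 416 counts in WT and 437, 385 and 343 in Abca4KO, 2312 in all, and the libraries overlapped. Its level was 20.5 ± 2.30 CPM in WT mice and 20.7 ± 1.31 CPM in Abca4KO mice (SD, n = 3 each), with a log2 fold change of 0.01 (SE 0.13 and adjusted p = 0.989 by edgeR). Glo1 had 13.9, 12.0 and 11.9 counts per count of Gm13443 in WT and 18.5, 19.2 and 20.9 in Abca4KO. The difference between the changes of Glo1 and Gm13443 was not tested. No source used here says how reads that match both were assigned, so part of either count may belong to the other. With both counts summed as 1 gene the log2 fold change was 0.61 (SE 0.08). A further GENCODE M21 transcript, AC165962.3, matches Glo1 over 418 bases without a mismatch and was not analysed here. The neighbours have such matches too: Btbd9 with AC174471.1 over 1256 bases and Dnah8 with AC165951.2 over 444 bases, both at 100% identity. Dnah8 also matches 1700097N02Rik over 248 bases (99.6% identity). The part of these matches in the counts of Btbd9 and Dnah8 was not tested.

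The genes on either side of Glo1 ran at similar levels in the genotypes. Btbd9, which encodes a BTB domain protein studied for its link to restless legs syndrome, begins 36.4 kb from the Glo1 start and its body ends 16578 bases short of the Glo1 body (ENSMUSG00000062202, minus strand, 30215524 to 30576287). It measured 57.9, 58.2 and 62.5 CPM in WT mice and 65.3, 54.4 and 71.3 CPM in Abca4KO. Abca4KO 2 was the lowest of the 6 libraries and Abca4KO 3 the highest, so the genotypes overlapped. The means were 59.5 ± 2.59 and 63.7 ± 8.55 CPM (SD, n = 3 each, with a log2 fold change of 0.10, SE 0.11). Dnah8, which encodes an axonemal dynein heavy chain of motile cilia and sperm tails, lies on the other side on the plus strand (ENSMUSG00000033826, 30624354 to 30875264), 11694 bases from the Glo1 body in the deposited table.

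Dnah8 held 18.7, 19.3 and 20.3 CPM in WT mice and 19.2, 22.3 and 19.2 CPM in Abca4KO. Both groups covered the same range apart from the higher value of Abca4KO 2. The means were 19.4 ± 0.813 and 20.2 ± 1.78 CPM (SD, n = 3 each, with a log2 fold change of 0.06, SE 0.12). In GENCODE M21 the span of Glo1, introns included, reaches 2518 bases into that of Dnah8 on the opposite strand. How much of this stretch is exon in both genes was not computed. Reads from bases that both transcribe cannot be told apart without strand. Glp1r, the receptor of glucagon-like peptide 1, lies beyond Dnah8 (ENSMUSG00000024027, plus strand, 30901867 to 30936510) and was at the limit of detection. Its counts were 2, 0 and 3 in WT and 0, 6 and 2 in Abca4KO, 5 counts against 8 in all (exact Poisson 95% intervals 1.62 to 11.7 and 3.45 to 15.8, covering counting error only). It did not pass the filter on low counts, and at this depth no difference was detectable.

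Among the other genes around Glo1 none passed the threshold either. The stretch within 1 Mb of the Glo1 body holds 36 genes besides the members, of which 17 were tested and 0 passed in edgeR's quasi-likelihood test, with 0 of 17 at an unadjusted p under 0.05. Over all tested genes these shares were 0.0461% and 7.02%. DESeq2 and limma-voom also called 0, against 0.563% and 0.0519% of all genes they tested. At an unadjusted p under 0.05 they had 1 of 18 and 0 of 17, against 5.91% and 6.95%. The median log2 fold change of the 17 genes was -0.06, against -0.01 over all tested genes, and 7 were positive and 10 negative. Zfand3, a zinc finger gene on the far side of Btbd9 (30005051 to 30210828), measured 152.1 ± 5.84 CPM in WT mice and 166.3 ± 15.6 CPM in Abca4KO mice (SD, n = 3 each), with overlapping libraries (log2 fold change 0.13, SE 0.09 and adjusted p = 0.818). Abcg1, a cholesterol exporter beyond Glp1r (31057698 to 31115777), measured 16.5 ± 4.64 and 22.9 ± 3.96 CPM (SD, n = 3 each, with a log2 fold change of 0.47, SE 0.23 and adjusted p = 0.733).

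Among the tested genes of the stretch, 3 had libraries that did not overlap between the genotypes (against 12.8% of all tested genes): Rnf8 with higher values in Abca4KO (log2 fold change 0.08), and Ccdc167 (-0.23) and Ndufv3 (-0.16) with lower ones. Their bodies lay 951, 876 and 907 kb from that of Glo1. The adhesion gene Mdga1 (2.65 ± 1.33 and 3.73 ± 1.23 CPM, SD, n = 3 each) had a log2 fold change of 0.49 with an SE of 0.44. Umodl1, which lies beyond Glp1r, had 0 counts in all 6 libraries, and the remaining genes lay between log2 fold changes of -0.49 and 0.48.

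**Figure D2:**
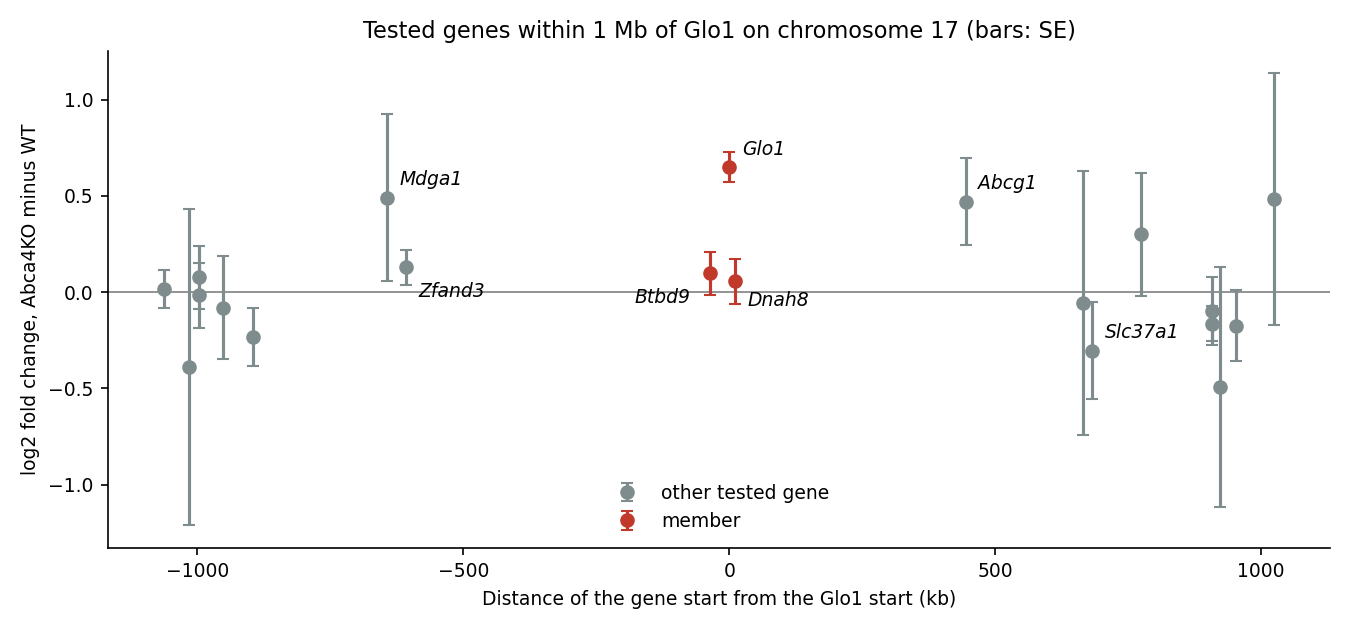
Log2 fold change (Abca4KO minus WT, vertical axis, bars SE) of the 20 tested genes within 1 Mb of Glo1, against the distance of each gene start from the Glo1 start in kb. Glo1 is at 0.65, with Btbd9 at 0.10 and Dnah8 at 0.06 beside it and Zfand3 at 0.13.

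Hagh, the second enzyme of the glyoxalase system, had overlapping levels in the genotypes. It (ENSMUSG00000024158, plus strand, chromosome 17, 24840143 to 24864450) measured 33.8, 30.7 and 25.9 CPM in WT mice and 29.8, 34.0 and 28.5 CPM in Abca4KO, with the Abca4KO libraries within or next to the WT range. The means were 30.1 ± 3.96 and 30.8 ± 2.83 CPM (SD, n = 3 each, with a log2 fold change of 0.03, SE 0.13). Hagh overlaps Fahd1 on the opposite strand, and since strand use is not given, its 3430 counts are uncertain beside the 1117 of Fahd1.

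Park7, Akr1b3 and Aldh9a1 stand for other routes of aldehyde and dicarbonyl removal. Park7 (ENSMUSG00000028964, minus strand, chromosome 4, 150897133 to 150914437) measured 136.3, 126.1 and 116.1 CPM in WT mice and 123.0, 129.2 and 123.1 CPM in Abca4KO. The Abca4KO values lay inside the WT range (means 126.2 ± 10.1 and 125.1 ± 3.53 CPM, SD, n = 3 each, with a log2 fold change of -0.01, SE 0.08). Akr1b3 (ENSMUSG00000001642, minus strand, chromosome 6, 34302434 to 34317478) measured 49.5, 59.8 and 52.3 CPM in WT mice and 51.1, 56.9 and 50.8 CPM in Abca4KO, again inside the WT range. Its means were 53.8 ± 5.34 and 52.9 ± 3.45 CPM (SD, n = 3 each, with a log2 fold change of -0.02, SE 0.10). Akr1b3 has 4 annotated copies with at least 99% identity, which together held few counts, at most 57 in 1 copy against 6003 in Akr1b3. How reads that match several genes were handled is not given. The low counts of the copies therefore do not tell how many reads of Akr1b3 match them too.

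Aldh9a1 (ENSMUSG00000026687, plus strand, chromosome 1, 167349991 to 167368532) was the member with the most negative log2 fold change, -0.22 (SE 0.10). It measured 169.5, 150.3 and 167.0 CPM in WT mice and 156.8, 128.2 and 132.0 CPM in Abca4KO. Abca4KO 2 and 3 lay below all WT libraries and Abca4KO 1 lay inside the WT range. The means were 162.2 ± 10.4 and 139.0 ± 15.6 CPM (SD, n = 3 each). For Glo1 the counting error alone would give a coefficient of variation of 1.44% in WT, for Park7 2.06% and for Dnah8 5.25%, so the counts limit the precision most for Dnah8 among the tested members.

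Ratios within a library do not depend on the scaling of library sizes. Glo1 had 4.35, 4.26 and 4.32 counts per count of Btbd9 in WT and 6.27, 7.01 and 5.83 in Abca4KO. The 3 WT ratios lay close together and all below the Abca4KO ratios. Per count of Dnah8 Glo1 had 13.5, 12.8 and 13.3 counts in WT and 21.3, 17.1 and 21.7 in Abca4KO. Per count of Hagh it had 7.45, 8.08 and 10.4 counts in WT and 13.7, 11.2 and 14.6 in Abca4KO. For each of the 6 other tested members the Abca4KO ratios lay above the WT ratios, with a ratio of means between 1.48 for Btbd9 and 1.84 for Aldh9a1. All these ratios use the same Glo1 counts, and Glo1 was chosen on this contrast. They therefore describe the same difference again and are not separate evidence for it.

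**Figure D3:**
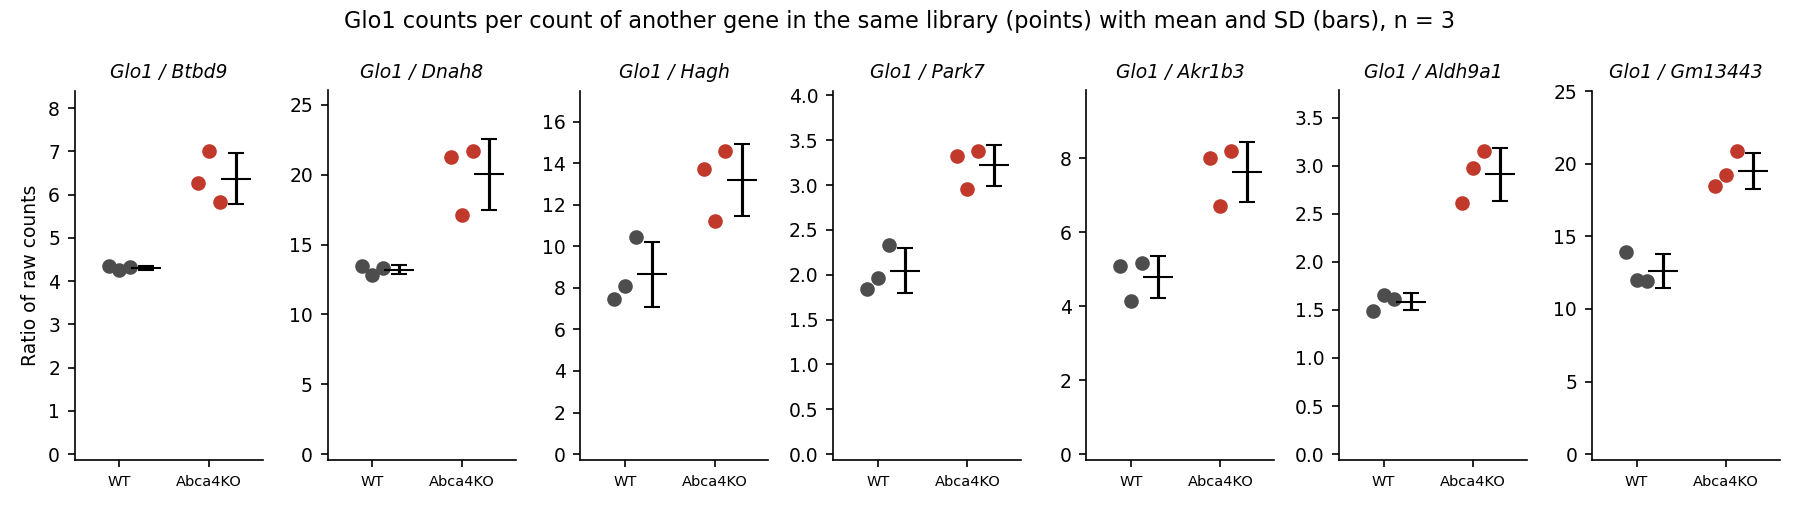
Raw counts of Glo1 divided by those of each other tested member and of the pseudogene Gm13443 in the same library (vertical axes from about 0), with points for 3 WT and 3 Abca4KO libraries and bars for the mean and SD. In all 7 panels, which share the same Glo1 counts, the Abca4KO libraries sit above the WT libraries, for Btbd9 at 5.83 to 7.01 against 4.26 to 4.35.

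Levels can be compared between genes only per length, here as RPKM (CPM per kilobase of the gene length in the deposited table). Glo1 stood first with 132.6 ± 6.15 RPKM in WT and 207.9 ± 9.45 RPKM in Abca4KO (SD, n = 3 each). By the mean of all 6 libraries it lay above 98.9% of all tested genes, a share taken with the deposited lengths only. Park7 (50.9 ± 4.08 RPKM in WT) and Aldh9a1 (48.0 ± 3.09 RPKM) followed and could not be ordered, since their ranges overlapped. Below them came Hagh at 15.8 ± 2.08, Btbd9 at 8.68 ± 0.377, Akr1b3 at 6.42 ± 0.637 and Dnah8 at 1.33 ± 0.0557 RPKM in WT (SD, n = 3 each). Each of these lay above the next in all 6 libraries. Glp1r, at 0 RPKM in 1 library of each genotype, was last.

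The order depends on the length used. With the shortest principal transcript of GENCODE M21, 895 bases for Glo1, the WT level of Glo1 was 286.6 RPKM and still the highest. With the longest, 9865 bases, it was 26.0 RPKM, below Park7 (134.6), Aldh9a1 (57.2) and Akr1b3 (38.8). Akr1b3 is listed with 8384 bases in the deposited table and with 1387 bases in its principal transcript. The order given above is that of the deposited lengths.

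**Figure D4:**
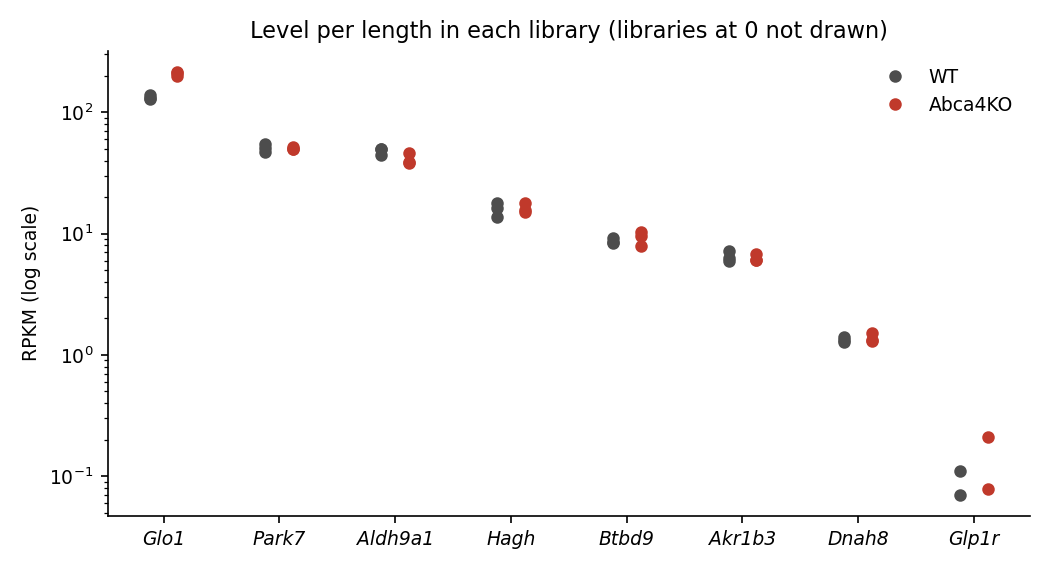
Level per length in RPKM (log axis) of the 8 genes in each WT and Abca4KO library, ordered by the WT mean, with libraries at 0 left out. Glo1 is highest, at a mean of 132.6 RPKM in WT and 207.9 RPKM in Abca4KO, and Park7 and Aldh9a1 overlap.

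The wider pathway showed no gene past the threshold. It was described by 64 other genes in 5 lists, of which 60 were tested and 0 passed in edgeR's quasi-likelihood test (0.0461% of all tested genes), with 2 higher and 3 lower at an unadjusted p under 0.05 (3.15% and 3.87% of all tested genes). Libraries did not overlap for 2 with higher and 6 with lower values in Abca4KO, against 5.93% and 6.85% of all tested genes. DESeq2 and limma-voom also called 0, with 7 of 61 and 4 of 60 at an unadjusted p under 0.05, against 5.91% and 6.95% of all genes they tested. The median log2 fold change of the 60 genes was 0.02, against -0.01 over all tested genes.

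Of 25 tested dicarbonyl and aldehyde enzymes, 13 were positive and 12 negative with a median of 0.02. Esd, an esterase that hydrolyses S-formylglutathione, measured 37.0, 38.0 and 38.9 CPM in WT mice and 42.9, 57.7 and 51.7 CPM in Abca4KO, without overlap (log2 fold change 0.42, SE 0.12 and adjusted p = 0.616). The aldehyde dehydrogenase Aldh3a1 measured 24.8, 218.9 and 39.6 CPM in WT mice and 15.8, 36.6 and 17.1 CPM in Abca4KO, so that WT 2 alone stood apart (adjusted p = 0.701). Aldh1a1, which makes retinoic acid, measured 26.9 ± 3.38 and 34.5 ± 5.93 CPM (SD, n = 3 each, adjusted p = 0.712). None of these genes passed.

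Of 10 tested genes that supply glutathione, the cofactor of the glyoxalase cycle, 4 were positive and 6 negative with a median of -0.0043. Oplah, which recycles 5-oxoproline to glutamate, measured 42.0 ± 2.61 and 33.4 ± 4.19 CPM, and Gclc, the catalytic subunit of the first step of glutathione synthesis, 67.6 ± 3.78 and 59.3 ± 3.51 CPM (SD, n = 3 each). Both had lower values in all Abca4KO libraries than in any WT library, as did 6.85% of all tested genes. Their adjusted p-values were 0.665 and 0.716 in edgeR's quasi-likelihood test. The glutathione reductase gene Gsr measured 65.3 ± 6.33 and 57.5 ± 5.15 CPM (SD, n = 3 each, adjusted p = 0.775).

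Genes tied to the formation of methylglyoxal (8 tested, 6 positive, median 0.02) included Tpi1, which interconverts the triose phosphates, at 213.1 ± 9.57 and 241.2 ± 20.7 CPM (SD, n = 3 each, adjusted p = 0.738). In the same list the amine oxidase Aoc3 had a log2 fold change of 0.72 (SE 0.36) and Gpd1 one of 0.19 (SE 0.23). All 7 genes of glycation repair and of receptors for glycation products were positive, against 8293 of all 17340 tested genes, with a median of 0.16. None of them had an unadjusted p under 0.05 with edgeR or libraries without overlap, against 7.02% and 12.8% of all tested genes. With 7 genes, a count of 0 is near these shares. The smallest log2 fold change was 0.01. The galectin Lgals3 measured 139.4, 190.4 and 111.7 CPM in WT mice and 146.2, 274.1 and 266.4 CPM in Abca4KO, with overlap (adjusted p = 0.711). Lgals3 is also a macrophage gene, and the part of macrophages, whose marker sums are given above, was not tested. Prkcsh had a log2 fold change of 0.16 (SE 0.09) and Ager, the receptor RAGE, one of 0.58 (SE 0.44) at 1.44 ± 0.585 and 2.16 ± 0.606 CPM (SD, n = 3 each).

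Nrf2, a regulator known to act on Glo1, was covered by 10 tested genes, 6 positive and 4 negative, with a median of 0.01. Keap1, which holds Nrf2 back, measured 51.5 ± 5.79 and 40.8 ± 5.48 CPM (SD, n = 3 each, adjusted p = 0.691), and Mafg, a partner of Nrf2, 73.6 ± 2.05 and 84.4 ± 4.74 CPM (SD, n = 3 each, adjusted p = 0.701). Neither overlapped between the genotypes (against 12.8% of all tested genes). The Nrf2 target Hmox1 measured 25.2 ± 6.71 and 33.0 ± 4.45 CPM (SD, n = 3 each, adjusted p = 0.759). Nfe2l2, the gene of Nrf2 itself, had a log2 fold change of 0.01 (SE 0.10). Those of the targets Nqo1, Srxn1 and Txnrd1 were 0.10 (SE 0.11), 0.09 (SE 0.12) and -0.02 (SE 0.09). The libraries of Hmox1, Nfe2l2, Nqo1, Srxn1 and Txnrd1 overlapped between the genotypes.

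**Figure D5:**
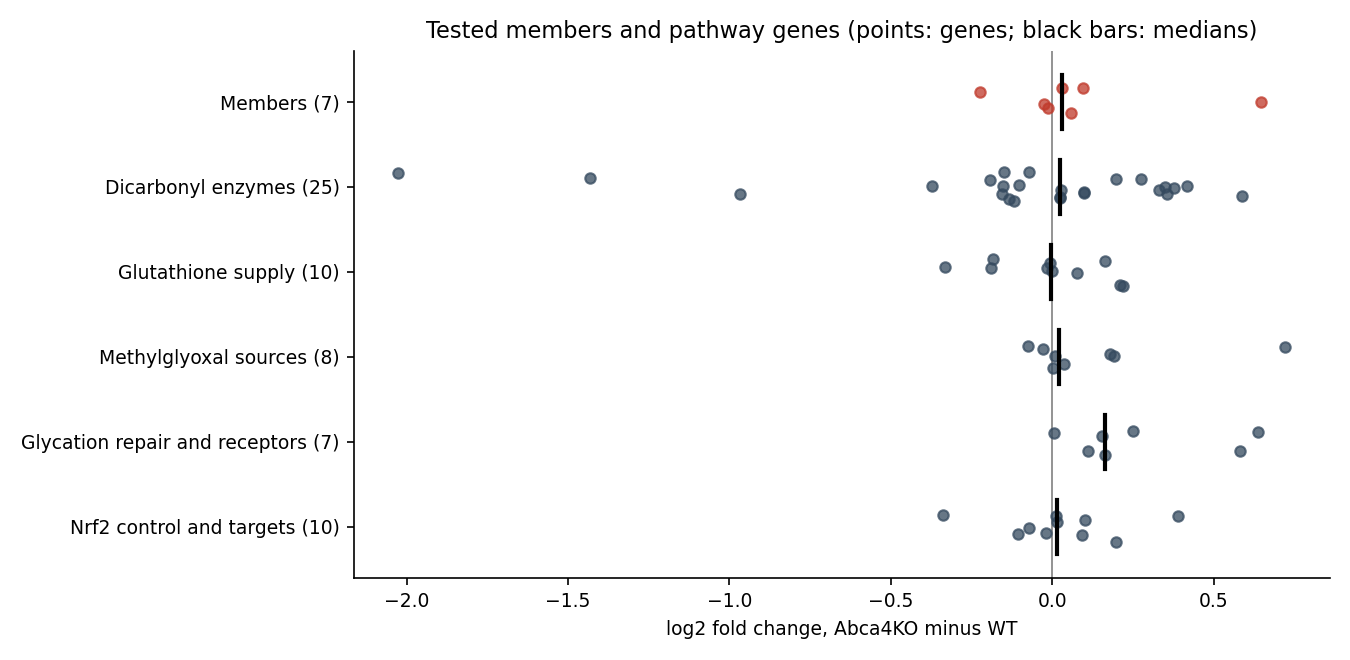
Log2 fold change (Abca4KO minus WT) of the 7 tested members and of the tested genes of 5 pathway lists, 1 point per gene and black bars for medians. Glo1 is the member at 0.65, and the medians of the lists lie between -0.0043 and 0.16.

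The genes whose levels followed Glo1 most closely were sought among 13832 tested genes outside the stretch around it with a mean of at least 1 CPM. By Pearson's r of log2 CPM over the 6 libraries, which share the difference between the genotypes, the highest 5 were Gucy1a1 (r = 0.993), Atp6v0e (0.983), Zkscan4 (0.981), Slco1c1 (0.979) and Bcan (0.978). Gucy1a1, a subunit of soluble guanylate cyclase on chromosome 3, measured 14.4 ± 0.683 CPM in WT mice and 30.0 ± 3.07 CPM in Abca4KO mice (SD, n = 3 each). Atp6v0e, a V-ATPase subunit on chromosome 17 (26676396 to 26699644), measured 99.2 ± 3.13 and 125.7 ± 6.23 CPM, and the zinc finger gene Zkscan4 2.76 ± 0.0739 and 3.72 ± 0.161 CPM (SD, n = 3 each). Slco1c1, a transporter of thyroid hormone, stood at 51.7 ± 8.28 and 129.2 ± 5.38 CPM, and Bcan, the proteoglycan brevican, at 15.4 ± 3.36 and 77.3 ± 8.24 CPM (SD, n = 3 each). Bcan and Gucy1a1 lie on chromosome 3, as does the disrupted gene Abca4, while Zkscan4 lies on chromosome 13 and Slco1c1 on chromosome 6. The part of this shared chromosome in their levels was not tested.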

How the data were processed

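The values the authors deposited are whole-number counts for each gene, without normalization, in 1 column per library beside a gene length. STAR, HTSeq and the build mm10 are named per the submitters' processing notes. Versions, the annotation release, strand use and what was done with reads that match several genes are not given in the sources used here. RNA came from the RNAqueous-Micro kit and libraries from the NEBNext Ultra RNA kit, per the labels' protocols. The design states 3 mice per genotype as replicates.

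Of all genes, filterByExpr (minimum count 10; edgeR 4.0.16, R 4.3.3) kept 17340. Library sizes were scaled by TMM, and the genotypes were compared with the quasi-likelihood test of edgeR (2-sided, all 6 libraries, no covariate) and Benjamini-Hochberg adjustment over all tested genes and a threshold of 0.05. Each SE was taken from the log2 fold change and its F statistic, as their ratio after taking the root of F. A count of 3 corresponds to 0.152 to 0.174 CPM. The fit was tested on simulated data. Copies of the members were searched with BLAST 2.17.0 among GENCODE M21 transcripts (at least 95% identity over 200 bases); other genes were not searched.

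The members, the lists and the stretch of 1 Mb were chosen with earlier results of these data known. The members were always named, as were protein-coding genes of the stretch at choice, up to 3 genes per list by smallest p, and the 5 genes most correlated with Glo1 that were not Gm numbers, Rik names or pseudogenes. The Müller glia markers and Nfe2l2, Nqo1, Srxn1, Txnrd1, Gapdh and Aldoa were named outside these rules. Gm13443 was added after its sequence and counts were seen. The remaining mismatch between Glo1 and Gm13443 is not reported here. Alternatives were other size factors, other filters, DESeq2 1.42.0, limma-voom (limma 3.58.1), a block for the replicate number, leaving out single libraries, windows of 500 kb and 2 Mb and, chosen after seeing the data, summed Glo1 and Gm13443 counts and other gene lengths.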

Additional observations from a re-analysis of the deposited data

How the results depend on the processing

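The log2 fold change of Glo1 was positive under all 14 alternatives run, between 0.61 with the counts of Gm13443 added and 0.69 without WT 3, and moved by less than 1 SD between replicates. Those of Btbd9 and Aldh9a1 kept their sign in all 14 (0.01 to 0.20 and -0.32 to -0.17). Those of Dnah8, Hagh, Park7 and Akr1b3 stayed within -0.08 and 0.12 and took either sign. Genes called in the stretch around Glo1 and in the pathway lists numbered 0 under every alternative, including 0 of 2 tested within 500 kb and 0 of 51 within 2 Mb. Over all genes 8 were called, and 19 without a filter on low counts (29052 tested) and 106 with DESeq2 (63 higher and 43 lower); the cause was not tested. Glo1 was among the calls in these 2 settings and in none of the others. Since Glo1 was chosen on this contrast in the same libraries, its calls and its stable sign only describe it. Leaving out single libraries gave 3 to 11 calls, with 4 without WT 1, 3 without Abca4KO 2 and 3 without Abca4KO 3.

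With the replicate number as a block 9 genes were called and Glo1 had a log2 fold change of 0.65 (SE 0.07). Deviations from the group means correlated at 0.17, 0.34 and -0.08 for replicate numbers 1, 2 and 3, and WT 3 correlated best with Abca4KO 1 (0.31), so the numbers were not taken to pair the animals. For Glp1r, at 0 to 6 counts per library, depth is the limit.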
